A study of Mus musculus with 16 samples.

Results

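The G-protein-coupled receptor kinases (GRKs) and the beta-arrestins are described here across back skin and sorted hair follicle stem cells (HFSC) of mice. The group was defined as the rows of both deposited tables that map to Grk2, Grk3, Grk4, Grk5, Grk6, Arrb1 and Arrb2. All 7 genes were found, among 55357 gene rows of the skin table and 56953 gene rows of the HFSC table. The series asks what GRK2 does in hair follicle homeostasis, and the question put to this group is how much of each kinase and arrestin these samples hold and whether another kinase was higher where Grk2 is the targeted gene. All mice were C57BL/6. The skin groups were 5 Control and 5 GRK2 eKO libraries of mice aged 8 months. The stem cell groups were 3 Control and 3 GRK2 eKO libraries of bulge cells sorted by flow cytometry as CD34-positive and α6-integrin-positive, for which the sample labels give 18 months and the design text gives 8 months. The abbreviation eKO, the promoter or cell type that drives the deletion, the exons removed, the sex of the mice and the preparation batches are not given in the sources used here.

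GRKs phosphorylate receptors that have bound their agonist, and beta-arrestins then bind the phosphorylated receptor, uncouple it from its G protein, link it to clathrin and the AP2 adaptor for endocytosis, and serve as scaffolds for kinases such as ERK. Grk2 and Grk3 form a subfamily that is brought to the membrane by free G-protein βγ subunits, whereas Grk4, Grk5 and Grk6 form a subfamily held at the membrane by lipid anchors or a basic helix. In the hair follicle the bulge holds the slow-cycling stem cells that renew the lower follicle, and several receptors of this tissue, among them Smoothened of the Hedgehog pathway, are known substrates or partners of GRK2 and beta-arrestins.

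The depth, as gene reads in M (mega), was 11.64 to 14.16 in the skin control libraries, 8.214 to 16.38 in skin eKO, 6.428 to 6.73 in HFSC control and 6.429 to 9.387 in HFSC eKO. The sort markers were present in the stem cells: Cd34 averaged 1255 and Itga6, which encodes α6-integrin, 2159.5 normalised reads in HFSC control. Krt15, a bulge keratin, averaged 114323 there. Of other cell types, skeletal muscle markers summed to 23.1 to 52.0 in these control libraries and adipocyte markers to 0 to 11.6. Dermal fibroblast markers summed to 134 to 156, melanocyte markers to 184.5 to 233.5 and leukocyte markers to 308 to 376. The sums were 600.4 to 658 for hair matrix and shaft, 2461 to 4322 for differentiated epidermis and 2929 to 3073 for sebaceous gland markers. Several libraries or groups stood apart. Skin control 5 and skin eKO 3 held almost no reads of the 4 Y-linked genes (sums of 1.90 and 0.642 normalised reads, against 2297 to 2762 in the other skin libraries). The 4 Y-linked genes summed to 2340 to 2476 in HFSC control and to 704 to 831 in HFSC eKO. The 10 endothelial markers summed to 14.7 to 43.99 in HFSC control, where Cldn5, Egfl7, Emcn, Esam and Vwf had 3 reads or fewer in every library, and to 1046 to 1269.7 in HFSC eKO, where 7 of 8 tested were called higher and Cldn5 and Egfl7 had 3 reads or fewer in every library.

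In control skin Grk2 had the highest level per length of the 7 genes. Per kilobase of exon it averaged 290 ± 32.2 normalised reads (SD, n = 5), a level higher than that of 87.97% of the 16552 genes tested in skin that had a gene length. Arrb1, the first of the ubiquitous arrestins, followed with 208 ± 46.2 per kilobase, and the ranges of Grk2 (246 to 333) and Arrb1 (164 to 282) overlapped. Arrb2 (112 ± 44.9) and Grk6 (112 ± 11.8) could not be ordered, and Arrb2 varied more between libraries, from 61.3 to 175. A step without overlap separated Grk6, whose lowest library had 99.4 per kilobase, from Grk3, whose highest had 64.3. The 3 lowest genes were Grk3 (45.5 ± 14.5), Grk5 (28.5 ± 7.64) and Grk4 (22.9 ± 4.62), each overlapping the next. The order of the means was the same in skin eKO, with Grk2 at 248 ± 20.95 and Arrb1 at 219 ± 47.1 per kilobase. When the longest transcript replaced the union of exons as the gene length, Arrb1 came before Grk2 in skin eKO and Grk4 before Grk5 in control skin.

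In the sorted stem cells the order was another one. Grk6, a kinase of the Grk4 subfamily, had the highest level per length, with 50.9 ± 6.15 normalised reads per kilobase in HFSC control (SD, n = 3), and its libraries (45.1 to 57.3) lay above all those of Grk2 (27.0 to 32.2). Among the 13603 genes tested in HFSC that had a gene length, the level of Grk6 was higher than that of 51.98%. For Grk2 this was 36.3%. Grk2 averaged 30.1 ± 2.69 per kilobase, Grk5 27.9 ± 4.49, Arrb2 23.8 ± 5.95, Arrb1 20.6 ± 4.92 and Grk4 15.2 ± 3.22, and each of these overlapped its neighbour in the order. Grk3, the close relative of Grk2, had few reads. There were 9, 1 and 4 reads in the 3 control libraries and 13, 0 and 0 in the 3 eKO libraries, a total of 27 reads that did not pass the minimum of 10 normalised reads in 3 libraries, so its genotype difference in HFSC was not tested. A count of 0 allows up to 3 reads in such a library, and this limit covers counting error only. Grk6 again had the highest mean in HFSC eKO, with 50.8 ± 9.30 per kilobase. With the longest transcript as gene length the order among Grk2, Grk5, Arrb1 and Arrb2 changed in at least 1 of the HFSC groups, and Grk6, Grk4 and Grk3 kept their places in both.

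**Figure D1:**
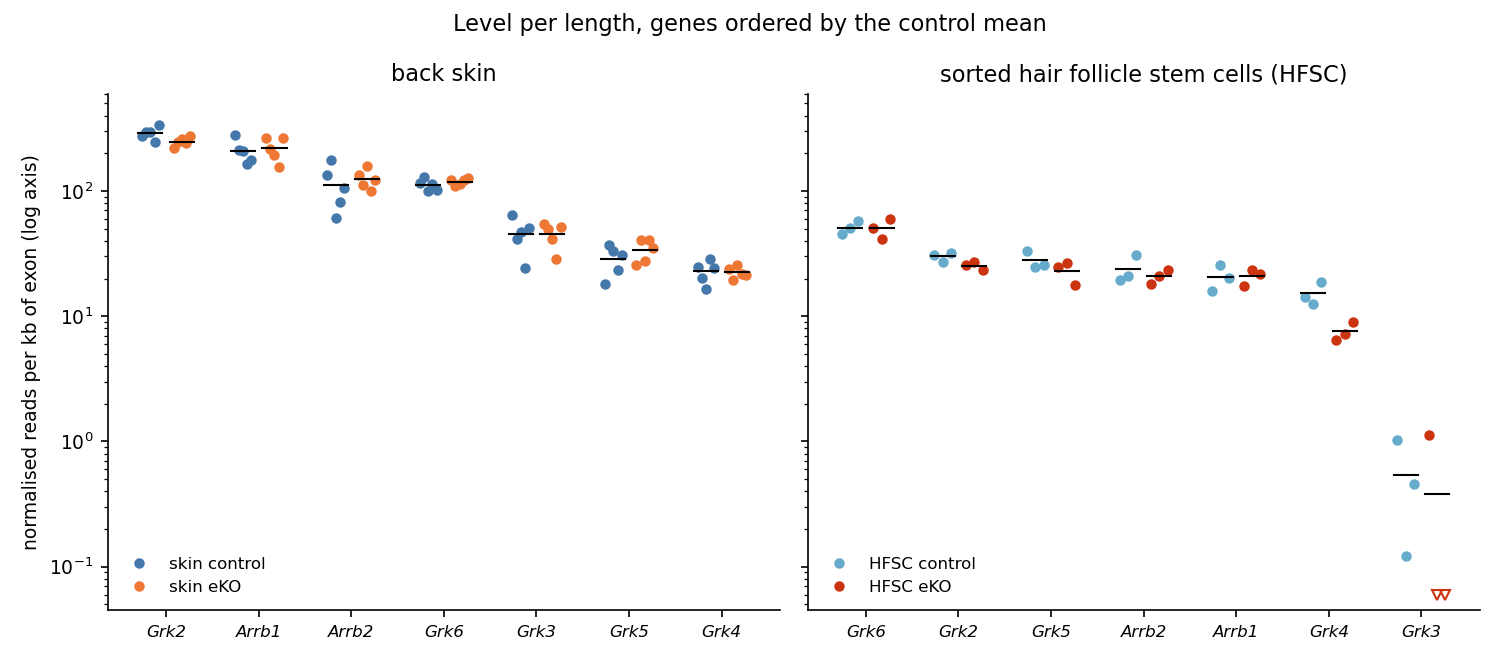
Normalised reads per kilobase of exon (log axis) of the 7 genes in each library of back skin (left) and HFSC (right), ordered by the control mean; points are libraries, short lines are group means, and open triangles mark libraries with 0 reads. Grk2 leads in skin with 290 per kilobase and Grk6 leads in HFSC with 50.9, and Grk3 in HFSC lies far below all others.

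Because the authors normalised the tables separately, levels in skin and HFSC are set side by side as RPKM, gene reads per kilobase of exon divided by the library's total of gene reads in M, with no test between them. Grk2 had an RPKM of 25.0 in control skin and 4.47 in HFSC control. The RPKM of Arrb1 was 17.9 in control skin and 3.05 in HFSC control, and that of Arrb2 was 9.62 and 3.53. For Grk3 the RPKM values were 3.91 and 0.0801. The kinases of the Grk4 subfamily did not show such a gap: Grk6 had 9.64 in control skin and 7.57 in HFSC control, Grk5 had 2.45 and 4.15, and Grk4 had 1.99 and 2.27. Skin and HFSC libraries differ in RNA extraction and in how their library preparation is described, and possibly in age. In whole skin each level is also a sum over all cell types. Preparation, fewer cells of a type and less RNA per cell therefore cannot be told apart.

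Grk2, the targeted gene, was still counted in every eKO library. The control skin libraries 1 to 5 held 1237, 1331, 1331, 1099.7 and 1492 normalised reads of Grk2, and the eKO skin libraries held 979.7, 1100.4, 1172, 1076 and 1224. The groups overlapped, although all 5 eKO libraries lay below the control mean of 1298. The difference of the means was -14.5%, and limma gave a log2 fold change of -0.22 (SE 0.10, 95% interval -0.44 to -0.004) with an adjusted p of 0.343 after Benjamini-Hochberg adjustment over 16589 genes. The exact two-sided permutation test on Grk2 alone gave p = 0.0397 (smallest possible 0.0079). Grk2 was the one gene of the 7 under an unadjusted 0.05 in limma in skin. In the same comparison 3 of 7 sebaceous gland markers were called higher in eKO skin (Krt79 by 1.71, Cidea by 1.57 and Far2 by 1.37 on the log2 scale), and the sums of that list were 16335 to 65405 in control and 51574 to 88211 in eKO. Their part in the Grk2 difference was not tested. Without the 2 libraries that held almost no Y-linked reads the log2 fold change was -0.19, with an adjusted p of 0.566 in limma.

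In the stem cells the control libraries held 138.6, 121.0 and 144.0 normalised reads of Grk2 and the eKO libraries held 114.5, 121.7 and 104.4. One eKO library (2) lay above the lowest control library, and all 3 were below the control mean. The limma log2 fold change was -0.24 (SE 0.23, 95% interval -0.74 to 0.25) with an adjusted p of 0.501, and the exact permutation test gave p = 0.2 where 3 against 3 cannot go below 0.1. The interval reached from -40.0% to 19.2%, so a loss of Grk2 reads beyond that lower bound lay outside it. The tables sum reads over the whole gene, and which exons the deletion removes is not given in the sources used here, so this is no check of the deletion itself.

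**Figure D2:**
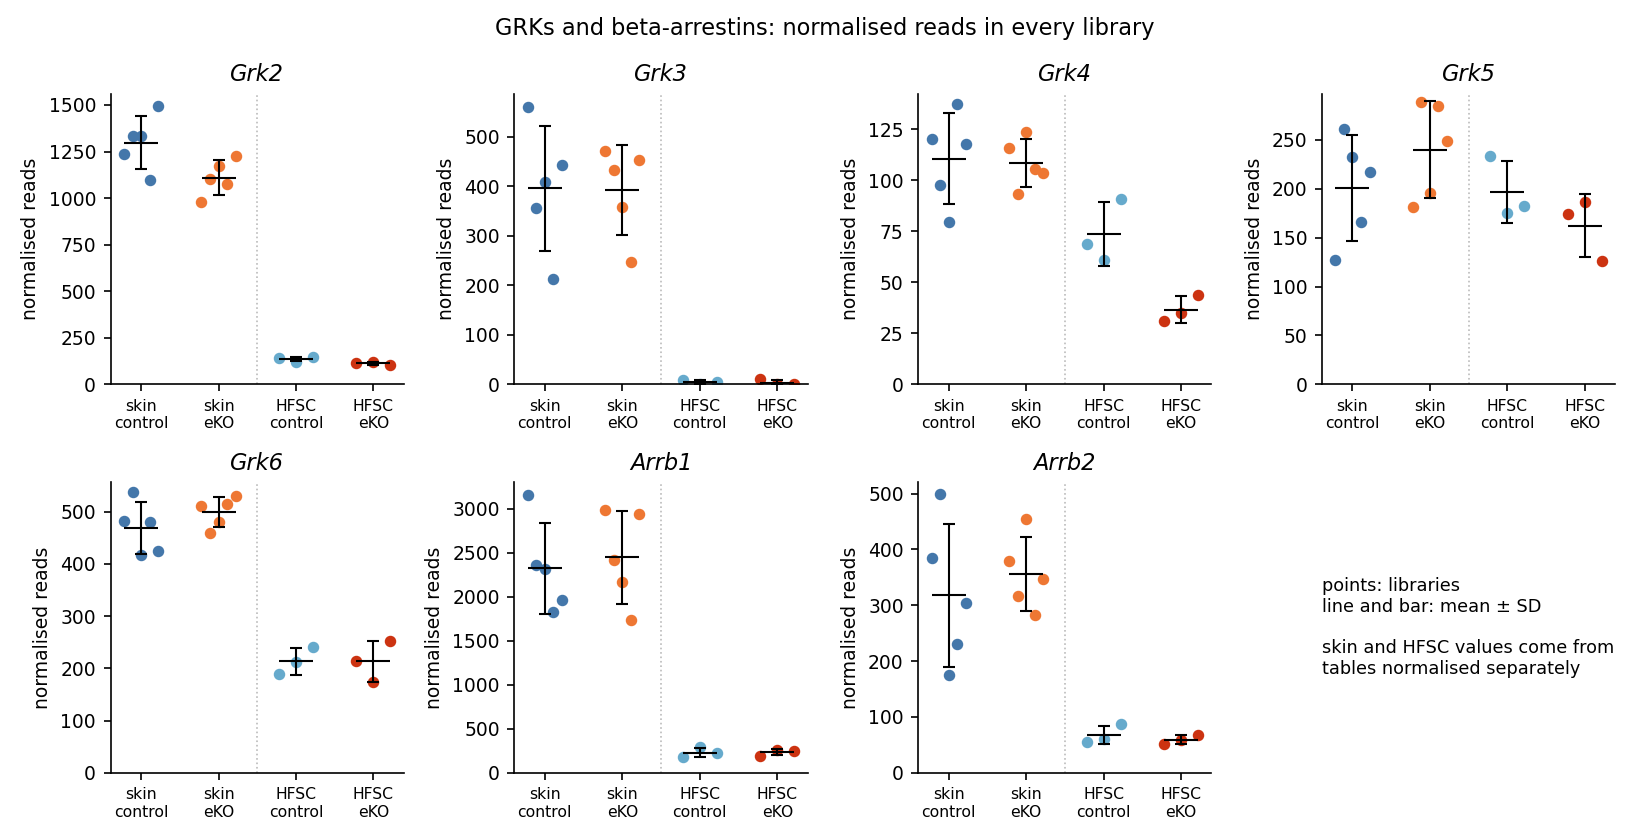
Normalised reads of each gene in every library of the 4 groups; points are libraries, the horizontal line and bar are the mean ± SD, and each panel has its own axis from 0. The eKO and control points overlap in every panel within each tissue except for Grk4 in HFSC, where the 3 eKO libraries (31.1 to 43.7) lie below the 3 controls (61.0 to 91.0).

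None of the 7 genes passed the adjusted threshold of 0.05 in skin, where 0.374% of all genes tested did, and none had groups that did not overlap, against 4.18% of all genes. In HFSC none of the 6 genes tested passed, where 19.4% of all genes tested did, and 1 of 6 (Grk4) had groups that did not overlap, against 36.3% of all genes. The median log2 fold change of the tested members was 0.07 in skin and -0.20 in HFSC, beside 0.00006 and -0.03 over all genes tested. edgeR and DESeq2 on the recovered reads also called 0 of these genes in either tissue, and each tool had 1 of them under an unadjusted 0.05 in each tissue.

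Grk3, which shares its domain structure with Grk2, had nearly the same mean in both skin groups. Its control libraries held 559, 357, 408, 212.8 and 442 normalised reads and its eKO libraries 471, 433, 359, 247 and 452. Both groups were broad and covered the same range. The limma log2 fold change was 0.02 (SE 0.26, adjusted p = 0.983), and its interval reached from -31.6% to 50.04%.

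Grk5 and Grk6, the widely expressed kinases of the other subfamily, had slightly higher means in eKO skin that did not pass the test. The control skin libraries held 127, 261, 233, 166 and 217 normalised reads of Grk5 and the eKO libraries 182, 289, 195, 285 and 249. The highest 3 of these 10 values were not confined to eKO, since control 2 had 261. The log2 fold change was 0.28 (SE 0.22, limma adjusted p = 0.612), with an interval from -13.0% to 68.3%. Grk6 varied least of the 7 genes across the skin libraries, with a highest value 1.29 times the lowest. Its libraries held 482, 539, 418, 481 and 425 in control and 511, 458, 480.3, 515 and 529 in eKO. The log2 fold change was 0.09 (SE 0.09, limma adjusted p = 0.699), and the interval ran from -7.53% to 23.1%, so that an increase of Grk6 above 23.1% lay outside it.

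In HFSC neither kinase passed the test, and neither mean was higher in eKO. Grk5 had 233, 176 and 182 normalised reads in control and 174, 186 and 126 in eKO, a difference of -0.29 on the log2 scale (SE 0.23; adjusted p = 0.408 in limma) with an interval from -41.6% to 14.8%. Grk6 had 189, 211 and 241 in control and 214, 174 and 252 in eKO. Its groups covered the same range, with a difference of -0.01 on the log2 scale (SE 0.20; adjusted p = 0.976 in limma) and an interval from -26.9% to 34.6%. An increase of Grk5 above 14.8% or of Grk6 above 34.6% thus lay outside the intervals, and smaller ones lay inside them.

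Grk4, a kinase best known from kidney and testis, was the one member whose HFSC groups were apart. The control libraries held 68.8, 61.0 and 91.0 normalised reads and the eKO libraries 31.1, 35.1 and 43.7. All 3 eKO libraries were below all 3 controls, on 218 reads in control and 114 in eKO in total. The limma log2 fold change was -0.98 (SE 0.35, 95% interval -1.74 to -0.22), with an adjusted p of 0.0682, and the adjusted p ran from 0.051 to 0.240 over the 14 alternatives, so the difference did not pass the threshold in any of them. The exact permutation test gave p = 0.1, the smallest that 3 against 3 allows. The Y-linked and endothelial sums given above moved with the same groups of libraries, as did the sebaceous gland markers (sums of 2929 to 3073 in control and 12121 to 12972 in eKO, 5 of 6 tested called higher) and the hair matrix and shaft markers (600.4 to 658 and 2244 to 2519, 7 of 8 tested called higher). The differentiated epidermis list did so too (2461 to 4322 in control and 15186 to 16073 in eKO, 3 of 5 tested called higher and 1 lower), as did the basal keratinocyte list (61887 to 62988 and 85344 to 95425, 2 of 4 called higher) and the leukocyte list (308 to 376 and 1276 to 2206, 2 of 5 tested called higher and 1 lower, with Adgre1 and Itgam at 3 reads or fewer in every HFSC library). Sums were lower in eKO for the bulge stem cell list (154345 to 157434 in control and 134285 to 153395 in eKO). Of its 8 tested genes, 1 was called higher and 1 lower. The melanocyte list was lower too (184.5 to 233.5 and 139.5 to 169.9, 0 of 3 tested called). The part of all these markers in the Grk4 difference was not tested. In skin Grk4 had 120.1, 97.8, 79.4, 137 and 118 in control and 116, 93.3, 124, 106 and 104 in eKO, which overlapped fully (log2 fold change -0.01, SE 0.17, limma adjusted p = 0.989).

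The arrestins did not differ by genotype beyond their spread. Arrb1 had 3153, 2358, 2317, 1829.7 and 1962 normalised reads in control skin and 2982, 2411, 2169, 1736 and 2935 in eKO skin, which gave a log2 fold change of 0.07 (SE 0.18) and an adjusted p of 0.890 in limma. In HFSC its libraries held 178, 287 and 225 in control and 196, 262 and 242 in eKO, which gave 0.04 on the log2 scale (SE 0.22; adjusted p = 0.927 in limma). The eKO values lay inside the control range in HFSC, and in skin all but that of library 4 did. Arrb2, the other widely expressed arrestin, had 384, 498, 174, 231 and 303 in control skin and 379, 316, 454, 283 and 347 in eKO skin, which gave 0.24 on the log2 scale (SE 0.26; adjusted p = 0.728 in limma). It had 55.8, 60.0 and 87.0 in HFSC control and 51.6, 59.2 and 67.1 in HFSC eKO (log2 fold change -0.17, SE 0.33, limma adjusted p = 0.765). The exons of Arrb2 contain the microRNA gene Mir7115 on the same strand, over 64 bases, and how reads there were assigned is not given in the sources used here.

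**Figure D3:**
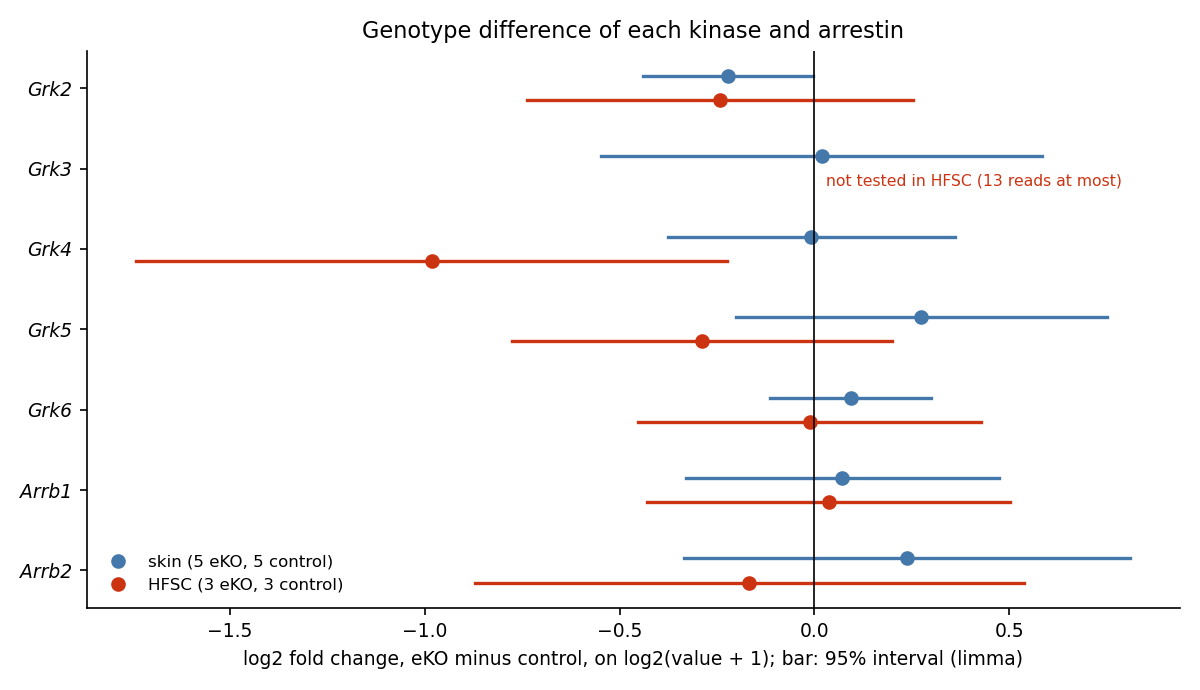
Log2 fold change of eKO against control on the log2(normalised value + 1) scale for each gene in skin (blue, 5 against 5) and HFSC (red, 3 against 3); points are limma estimates and bars their 95% intervals. The intervals of Grk2 in skin (-0.44 to -0.004) and Grk4 in HFSC (-1.74 to -0.22) leave out 0, but neither passed the threshold after adjustment over all genes.

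The difference between the genotype effects of HFSC and skin was tested as an interaction in 1 limma fit of the 4 groups. None of the 6 members tested in both tissues passed, where 5.62% of 13227 genes did. Grk4 had the largest difference, -0.97 on the log2 scale (SE 0.31, adjusted p = 0.0736), and it was the one member under an unadjusted 0.05, also in edgeR. Grk5 followed with -0.56 (SE 0.33, adjusted p = 0.350), from a positive estimate in skin and a negative one in HFSC. For Grk2 the estimates in both tissues were nearly the same size, with a difference of -0.02 (SE 0.16, adjusted p = 0.964). This fit shares 1 variance per gene between skin and HFSC. With each tissue's own limma standard error, the SE of the difference was 0.25 for Grk2 (adjusted p = 0.977). For Grk4 it was then 0.39 (adjusted p = 0.151). The remaining differences were -0.40 for Arrb2, -0.11 for Grk6 and -0.04 for Arrb1, each with an adjusted p of at least 0.604 in limma.

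Shares within a library do not depend on its size factor, and they show the makeup of the kinase pool per length. Grk2 made up 58.1% ± 2.73 of the summed signal of Grk2 to Grk6 in control skin and 52.9% ± 2.33 in eKO skin (SD, n = 5 each). The control libraries ran from 55.5% to 61.7% and the eKO libraries from 49.2% to 55.6%, so the groups met at their edges. Grk6 made up 22.5% ± 3.07 and 25.4% ± 1.72, and Grk5 5.69% ± 1.35 and 7.26% ± 1.52 in control and eKO skin. The summed kinase signal was 499 ± 39.6 and 468 ± 24.5 normalised reads per kilobase.

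In HFSC the pool was led by Grk6, with 40.9% ± 4.05 in control and 47.3% ± 6.99 in eKO (SD, n = 3 each). Grk2 held 24.1% ± 0.716 and 23.7% ± 2.71, nearly the same share in both groups. Grk5 held 22.5% ± 3.78 and 21.6% ± 4.93. Grk4 held 12.1% ± 1.62 in control, with libraries from 10.99% to 14.0%, and 7.07% ± 1.14 in eKO, with libraries from 5.92% to 8.20%. Per length, Arrb1 averaged 2.07 ± 0.815 times Arrb2 in control skin and 0.896 ± 0.290 times in HFSC control. The control libraries ran from 1.20 to 3.38 in skin and from 0.658 to 1.22 in HFSC, so they overlapped at their edges. In skin eKO this ratio was 1.78 ± 0.381 and in HFSC eKO 1.00 ± 0.110. Summed arrestins were 0.640 ± 0.139 of summed kinases in control skin and 0.356 ± 0.0632 in HFSC control, and 0.735 ± 0.122 and 0.390 ± 0.0552 in the eKO groups. These shares are descriptions, without a test.

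**Figure D4:**
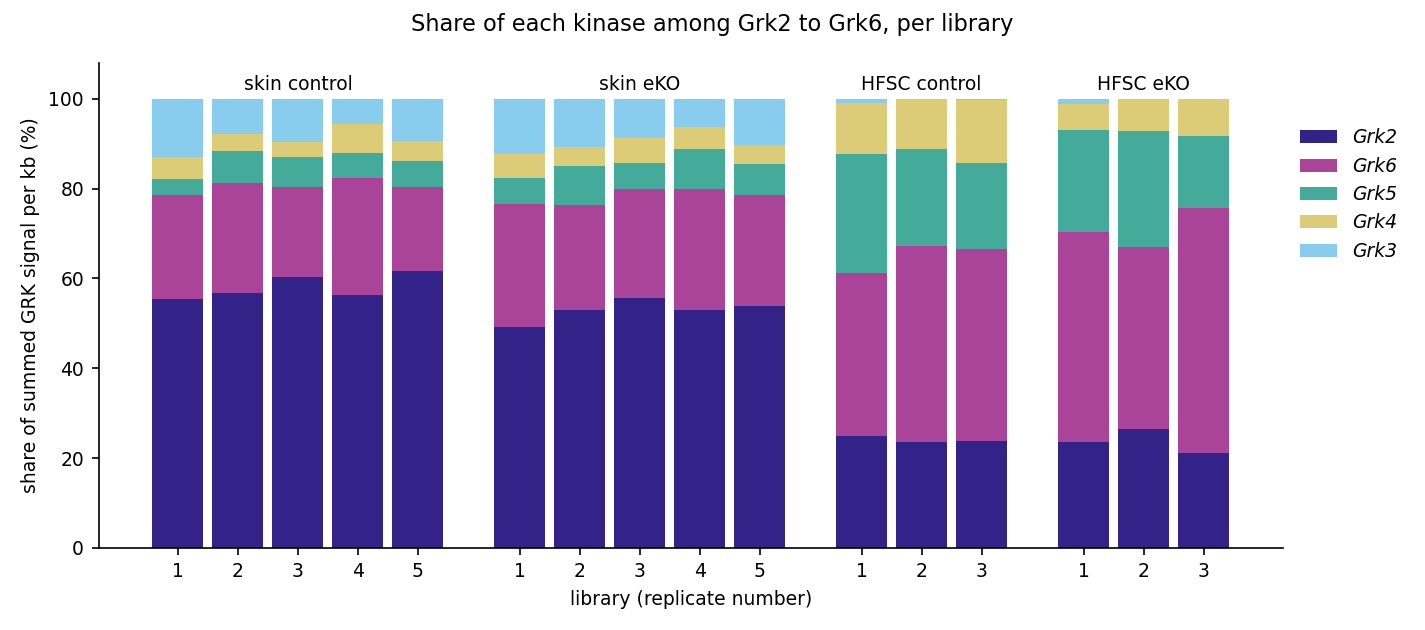
Stacked bars show the share (%) of each of Grk2 to Grk6 in their summed normalised reads per kilobase, 1 bar per library, in the 4 groups. Grk2 takes 49.2% to 61.7% of every skin library, and Grk6 is the largest share in every HFSC library.

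The 10 skin libraries differ in cell makeup, and the members were compared with it. A total of 98 relations were computed over these libraries, 77 of a member with the mean log2 level of a cell type marker list and 21 between members, each with 100000 permutations and Benjamini-Hochberg adjustment over the 98. The 1 relation that passed by both Pearson's r and Spearman's rho was that of Arrb1 with the hair matrix and shaft list, which holds the keratins and regulators of the growing hair. Arrb1 was lower where these markers were higher (r = -0.907, permutation p = 0.00051, adjusted 0.04998; rho = -0.927, permutation p = 0.00029, adjusted 0.0284). With control 1 and eKO 1 left out, the pair most distant from the list's median, r was -0.824, and after the genotype means were removed it was -0.911. The Pearson value lay just under the threshold. With the hair matrix list as a covariate the Arrb1 genotype difference stayed near 0 (log2 fold change 0.05, SE 0.10).

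**Figure D5:**
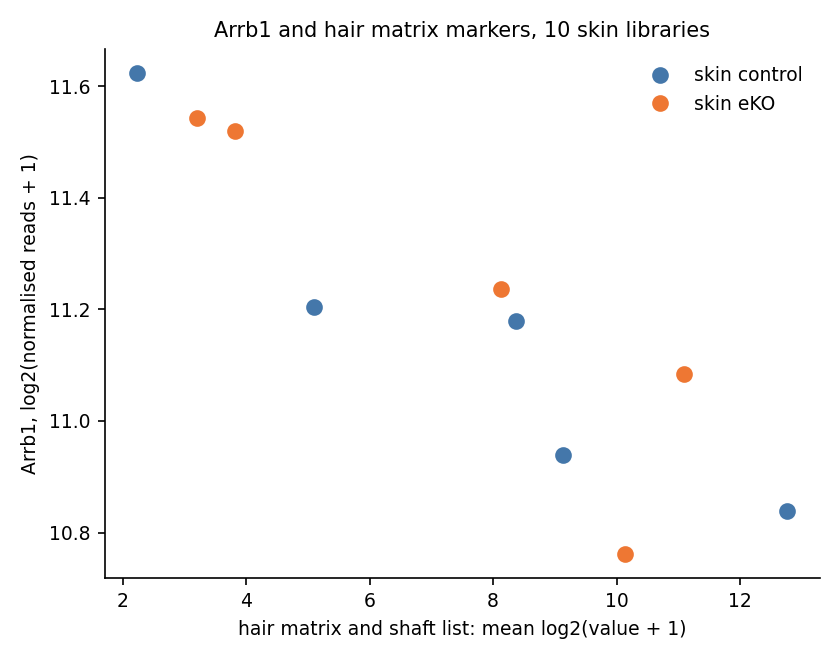
Each point is 1 of the 10 skin libraries; the x axis is the mean log2(value + 1) of the tested hair matrix and shaft genes and the y axis is log2(normalised reads + 1) of Arrb1. Libraries of both genotypes follow the same downward course (r = -0.907), from control 1 at the upper left to control 4 at the lower right.

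Next in size by Pearson's r came 6 relations that did not pass. Grk5 was higher where the differentiated epidermis list was higher (r = 0.856, permutation p = 0.00161, adjusted 0.0787; rho = 0.879, adjusted 0.0779), and r was 0.890 without the extremes of that list. Grk3 and Arrb1 varied together (r = 0.824, permutation p = 0.00245, adjusted 0.0787; rho = 0.830, adjusted 0.0947), and both were higher where the adipocyte list was higher, with r = 0.80 for Grk3 and 0.81 for Arrb1 (adjusted permutation p = 0.0787 for each). The Grk3 value rested on the extremes, since r was 0.49 without them. Grk3 was lower where the hair matrix list was higher (r = -0.771, adjusted permutation p = 0.0918), and Grk4 was lower where the basal keratinocyte list was higher (r = -0.80, adjusted permutation p = 0.0787). By rho, Arrb1 with the leukocyte list was also among the larger relations (rho = 0.842, adjusted permutation p = 0.0947). Its r was 0.634 (adjusted permutation p = 0.319), and 0.919 without the extremes of that list. Of its relations with marker lists, Grk2 had the largest r with the sebaceous gland list (r = -0.52, permutation p = 0.123, adjusted 0.588; rho = -0.58, adjusted 0.438), which was -0.82 without the extremes of that list and 0.17 after the genotype means were removed. Its largest rho was with the melanocyte list (-0.68, permutation p = 0.0340, adjusted 0.238; r = -0.44). Grk2 had r = -0.01 with the hair matrix list, and with the other members its r ran from -0.45 for Grk6 to 0.28 for Grk3.

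As a description, the 3 genes of 16589 with the pattern most like each member over the 10 skin libraries were taken by Pearson's r. For Grk2 they were Crbn (0.93), the substrate receptor of a cullin E3 ligase, Tmem189 (0.93) and Sdhaf3 (0.91). For Grk3 they were Ankrd55 (0.98), Rnf13 (0.98) and Nfix (0.96), and for Arrb1 Kbtbd11 (0.95), Slc48a1 (0.94) and Galm (0.94). Grk4 was nearest to Rsg1 (0.96), Grk5 to Pisd (0.94), Grk6 to Lhfp (0.94) and Arrb2 to Slit2 (0.94). None of these nearest genes was itself a GRK or an arrestin. All genes were measured in the same libraries, which differ in depth and cell makeup. The highest of so many values is also high by selection.

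The wider desensitisation pathway was examined with 7 lists, and in skin none of their genes passed the threshold. The gene with the smallest p in each list in skin was Actn1, an actin crosslinker that binds GRKs (log2 fold change 0.86, limma adjusted p = 0.0567), Mapk3, which encodes ERK1 (0.42, 0.141), Arrdc3 (-0.57, 0.213), Usp33 (-0.33, 0.214), Cxcr4 (0.76, 0.275), Picalm (0.17, 0.330) and the visual arrestin Sag (-0.50, 0.481). In HFSC the visual list had no called gene either, and Sag, the one tested, differed by -1.75 on the log2 scale (adjusted p = 0.247 in limma). Of the other visual members, named after their values were seen, the kinase gene Grk1 had at most 7 reads and the cone arrestin gene Arr3 at most 5 in any skin library. In HFSC 15 genes of these lists passed, 9 higher and 6 lower in eKO. Tested there were 1 gene of the visual list, 4 alpha-arrestins, 18 clathrin endocytosis genes and 16 genes of receptor ubiquitination and recycling. The GRK regulators and partners and the kinases scaffolded by beta-arrestins had 15 tested genes each, and the receptors had 9. Over the 7 lists together, the share of tested genes that passed was no higher than the 19.4% of all genes in HFSC. By list it was above that for the alpha-arrestins (2 lower of 4) and the GRK regulators and partners (3 higher and 2 lower of 15). It was below that for the other lists.

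The receptor-proximal lists in HFSC held changes in both directions. Of 4 tested alpha-arrestins, a family that acts as adaptors for ubiquitin ligases, 2 fell and none rose in eKO. Arrdc1 averaged 1154 ± 53.7 normalised reads in control and 771 ± 82.8 in eKO (SD, n = 3 each; log2 fold change -0.59, limma adjusted p = 0.00402), and Arrdc3, known for the trafficking of β-adrenergic receptors, 2085 ± 74.1 and 1462 ± 315 (-0.54, 0.0177). Of 9 tested receptors with known GRK and arrestin regulation, 1 rose and none fell. It was S1pr1, a sphingosine 1-phosphate receptor that endothelial cells express strongly, with 0 to 16.8 normalised reads in control and 107 to 226 in eKO (5.65, limma adjusted p = 0.00061). One control library had 0 reads of S1pr1, and the fitted log2 fold change ran from 4.29 to 6.87 over the alternatives, with the call kept in each. The highest value came without control 2 and the lowest with a pseudocount of 5. The endothelial marker sums were higher in the same libraries, and their part in the S1pr1 difference was not tested. Of 16 tested genes of receptor ubiquitination and recycling, 2 rose and 1 fell: Slc9a3r1, a PDZ protein that recycles the β2-adrenergic receptor (1.02, 0.00939), Rab5c of the early endosome (0.40, 0.0252) and Usp33, a deubiquitinase that acts on that receptor and on beta-arrestin (-0.67, 0.0102).

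The clathrin machinery and the GRK partners were mostly below the threshold in HFSC. Of 18 clathrin endocytosis genes, Arf6, a small GTPase of endocytosis, rose (1.07, limma adjusted p = 0.0275), Hip1, a clathrin adaptor, fell (-0.48, 0.0350) and 16 did not pass. Of 15 tested GRK regulators and partners, 3 rose and 2 fell. Pebp1, the Raf kinase inhibitor protein that can bind GRK2, rose (0.84, 0.0343), as did Hsp90ab1, a chaperone of GRKs, from 3407 ± 124 to 5838 ± 1240 (0.76, 0.00081). Git2, a GRK-interacting Arf GAP (-0.57, 0.0106), and Mdm2, the ligase that ubiquitinates beta-arrestin and GRK2 (-0.48, 0.0312), fell. Of 15 tested kinases scaffolded by beta-arrestins, Map3k5 (0.77, 0.0296) and Gsk3b (0.57, 0.00114) rose and none fell. All 15 called genes kept their direction under 14 alternatives, and 6 (S1pr1, Slc9a3r1, Hsp90ab1, Gsk3b, Arrdc1 and Calm2, the last named after its values were seen) kept their call in each. The other 9 lost it in 1 to 5 alternatives, nearly all of which left out 1 library, with an adjusted p of at most 0.139.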

How the data were processed

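Poly-A RNA sequencing of skin and a library described as Illumina-compatible of HFSC were deposited as 1 table per tissue. The deposited values are a signal, gene reads divided by 1 size factor per library, as the values themselves show: 100% of values in all 16 columns came out as whole reads within a tolerance of 0.01. The submitters' processing notes name featureCounts and DESeq2 for skin and GRCm39 for both tissues, while aligner and strand settings are not given in the sources used here. Gene names and lengths came from GENCODE M21, whose build differs, so no coordinates are given. Genes with at least 10 normalised reads in 5 skin or 3 HFSC libraries, the size of the smaller group, were tested with limma 3.58.1 (trended prior, log2(value + 1), Benjamini-Hochberg, threshold 0.05) in R 4.3.3, and edgeR 4.0.16 and DESeq2 1.42.0 on recovered reads were alternatives. Fold changes on this scale understate changes of low genes. The limma and edgeR fits of each tissue were also run on simulated counts. These counts modelled no difference in cell makeup between libraries, so the run does not show how the fits deal with such a difference. The members and lists were chosen with earlier results of these data known. The genes named are all members and, per list and tissue, up to 4 called genes with the largest change or, with none called, the one with the smallest p, and the text says where a gene other than a cell type marker was named outside this rule. Nothing says that replicates are separate animals, so p-values measure the spread between these libraries.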

Additional observations from a re-analysis of the deposited data

How the results depend on the processing

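No GRK or arrestin passed the threshold of 0.05 in skin, in HFSC or in the difference between them under any alternative run. The number of all genes called in skin was less stable: 62 became 656 with DESeq2, 144 with the hair matrix list as a covariate, 37 with no filter, 32 with library size scaling and 0 (limma; 1790 at an unadjusted p under 0.05) without the 2 libraries that hold almost no Y-linked reads. Leaving out 1 skin library gave 10 to 57, with 10 to 23 where the library left out was control 1, 2, 3 or 5 or eKO 1, 3, 4 or 5. In HFSC 2673 became 1519 to 2620 without 1 library. The cause was not tested. In the limma fit with the replicate block HFSC had 2696 calls and Grk4 a log2 fold change of -0.98 (adjusted p = 0.0979). Same-numbered libraries had correlations of -0.060, -0.018 and -0.026 in their deviations, beside -0.017 to 0.039 for differently numbered ones. No effect shared by replicate number was seen, and such values cannot settle whether the numbers pair the samples.

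Estimates near 0 changed sign without being called. In skin, Grk3 was -0.018 with edgeR, -0.016 with DESeq2 and -0.0039 with the covariate, and Grk4 was 0.017 with library size scaling. In HFSC, Grk6 was 0.0082 with edgeR and 0.0010 with DESeq2, and Arrb1 -0.032 with library size scaling. Leaving out 1 library gave -0.19 to 0.18 for Grk3, -0.12 to 0.076 for Grk4 and -0.0073 to 0.19 for Arrb1 in skin, and -0.14 to 0.13 for Grk6, -0.13 to 0.21 for Arrb1 and -0.29 to 0.026 for Arrb2 in HFSC. For the difference between tissues it gave -0.094 to 0.039 for Grk2, -0.23 to 0.032 for Grk6 and -0.21 to 0.14 for Arrb1. With the longest transcript as gene length 17 of 28 ranks by level (7 genes in 4 groups) stayed as they were. Grk3 in HFSC had 13 reads at most in a library, too few to test its genotype difference.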
